A study of Mus musculus with 11 samples.

Results

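The genes described are *Spi1*, *Cebpa*, *Cebpb*, *Cebpd*, *Cebpg*, *Runx1*, *Bhlhe40*, *Bhlhe41*, *Klf2* and *Klf4*, 10 of the 12932 genes of the RNA-seq table, chosen by name as the PU.1, C/EBP, RUNX, BHLHE and KLF factors of alveolar macrophages (AMs). All 10 passed the filter on low values. Their mRNA was followed in 11 libraries of sorted AMs from 9-week-old C57BL/6J mice, with 40000 cells per library. The study used mice of both sexes, and the libraries are not told apart by sex here. The libraries fall into 3 groups. The group mAM_WT has 4 libraries of CD11b-/SiglecF+ mature AMs (mAMs) from mice that carry the floxed *Rxra* and *Rxrb* alleles without Cre. The group mAM_KO has 4 libraries of mAMs with the same floxed alleles and a Cre driven by the *Cd11c* promoter, which removes the retinoid X receptors RXRα and RXRβ. The group ImmAM_KO has 3 libraries of CD11b+/SiglecF+ immature AMs (ImmAMs) of that same Cre-positive genotype. All groups carry the floxed alleles, and no ImmAM library without Cre is in the table, so ImmAM_KO differs from mAM_WT in both the gate and the genotype. The study's own comparisons used mAM_KO replicates 1 to 3, and these 10 libraries are the basis of the tests here. Replicate 4 of mAM_KO is given beside them and enters an alternative fit on all 11 libraries.

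PU.1, encoded by *Spi1*, is the ETS factor that opens myeloid enhancers, and in AMs its level is raised during maturation under GM-CSF. The C/EBP proteins are basic leucine zipper (bZIP) factors that bind next to PU.1 as dimers. C/EBPα and C/EBPβ drive myeloid and AM programmes, C/EBPδ is induced in inflammation, and C/EBPγ lacks an activation domain and dimerizes with other bZIP factors. RUNX1 binds DNA with its partner CBFβ, and the E-box repressors BHLHE40 and BHLHE41 maintain the identity and self-renewal of AMs. The zinc-finger factors KLF2 and KLF4 bind GC-rich boxes and belong to the quiescent and resident macrophage programmes. RXRs are nuclear receptors that pair with partners such as PPARγ.

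The RefSeq table of promoters (GRCm38.p6) holds 8 promoters of 7 of the factors; *Spi1*, *Cebpd* and *Bhlhe40* are not among them. Windows of the 250 bases before a start site are shown, because they belong to a factor lower in ImmAM_KO with a GC-rich transcript (*Cebpb*), one higher in ImmAM_KO (*Cebpg*), the distal and proximal starts of *Runx1*, which the gene-level table does not separate, and a factor with an E-box in its own promoter (*Bhlhe41*). Capitals mark the GC box GGGCGG bound by SP and KLF factors, the E-box CACGTG of BHLHE40 and BHLHE41 and the ETS core GAGGAA, each on either strand.
Cebpb, chr2:167688665-167688914 (+ strand): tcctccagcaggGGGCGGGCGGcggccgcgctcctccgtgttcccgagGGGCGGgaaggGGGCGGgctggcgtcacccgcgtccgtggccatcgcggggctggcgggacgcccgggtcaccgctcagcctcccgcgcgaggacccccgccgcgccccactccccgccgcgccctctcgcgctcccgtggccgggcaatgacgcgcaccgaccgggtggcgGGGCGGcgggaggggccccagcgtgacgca
Cebpg, chr7:35056567-35056816 (- strand): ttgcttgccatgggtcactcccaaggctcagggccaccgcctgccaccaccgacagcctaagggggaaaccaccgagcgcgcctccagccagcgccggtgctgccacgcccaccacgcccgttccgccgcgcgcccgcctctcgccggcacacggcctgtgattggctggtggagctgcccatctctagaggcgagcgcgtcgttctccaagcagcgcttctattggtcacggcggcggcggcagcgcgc
Runx1 distal, chr16:92826075-92826324 (- strand): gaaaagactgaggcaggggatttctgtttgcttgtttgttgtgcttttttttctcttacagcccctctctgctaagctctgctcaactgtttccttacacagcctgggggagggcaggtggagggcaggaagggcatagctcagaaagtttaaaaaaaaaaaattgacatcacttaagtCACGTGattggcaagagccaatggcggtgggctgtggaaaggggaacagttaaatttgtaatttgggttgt
Runx1 proximal, chr16:92697330-92697579 (- strand): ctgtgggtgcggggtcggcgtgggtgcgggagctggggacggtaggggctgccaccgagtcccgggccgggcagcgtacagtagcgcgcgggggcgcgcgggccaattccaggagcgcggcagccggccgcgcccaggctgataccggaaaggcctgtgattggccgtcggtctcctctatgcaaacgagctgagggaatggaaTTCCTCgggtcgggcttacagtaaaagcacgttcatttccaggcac
Bhlhe41, chr6:145865421-145865670 (- strand): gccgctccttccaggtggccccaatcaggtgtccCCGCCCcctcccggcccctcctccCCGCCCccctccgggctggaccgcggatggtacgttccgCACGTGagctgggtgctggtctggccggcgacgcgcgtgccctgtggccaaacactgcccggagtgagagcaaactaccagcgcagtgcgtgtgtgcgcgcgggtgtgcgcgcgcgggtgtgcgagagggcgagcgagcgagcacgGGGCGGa
The GC box was found 5 times before *Cebpb*, 2 of them overlapping. It was also found before *Klf4*, *Bhlhe41* and *Klf2*, and in 32.7% of all 32851 promoters of the table. The E-box was found before *Bhlhe41* and before the distal start of *Runx1*, 153 and 71 bases ahead of the start, and also 182 bases before *Klf4*, while 6.02% of all promoters hold it. The ETS core lies 46 bases before the proximal start of *Runx1* and is in 23.3% of all promoters. The 8-letter PU.1 site GAGGAAGT (2.44% of promoters), the C/EBP site TTGCNNAA (9.56%), the RUNX site TGTGGT (14%), the RXR half-site AGGTCA (14%) and its direct repeat DR1 (0.0335%) were not found in these windows of the 7 factors. These are matches of letters on both strands, not measured binding. The *Cebpb* window has a GC content of 81.6% and the distal *Runx1* window one of 45.6%, with a median of 52.4% over all promoters.

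The libraries held 16659960 to 37873532 reads over genes, recovered from the deposited CPM values (reads scaled to a common library size, with TMM factors), and each factor had between 171 reads (*Klf2*) and 23350 reads (*Cebpb*) in a library. Libraries differed in how gene levels follow the GC content of transcripts. This GC tilt is the median log2 deviation from the 10-library mean in the 10% of genes richest in GC minus that in the 10% poorest in GC. It was -0.21, -0.23 and -0.32 in mAM_KO replicates 1 to 3 and 0.43 in mAM_KO replicate 4. In mAM_WT replicates 1 to 4 it was -0.13, 0.27, -0.03 and 0.57, and in ImmAM_KO replicates 2 to 4 it was -0.09, 0.22 and -0.08. *Cebpb* (67.2% GC), *Cebpa* (62.6%), *Klf2* (61.6%) and *Spi1* (58.9%) are richer in GC than 99.9%, 99%, 98.5% and 94.4% of the genes tested, so a fit corrected for the GC trend of each library is given beside their results. That correction was chosen after the data were seen, and it also takes away any difference between cell states that follows GC content. Over all exons, *Rxra* was at 310 to 380 CPM in mAM_WT, 334 to 419 CPM in mAM_KO and 283 to 305 CPM in ImmAM_KO, and *Rxrb* at 51.4 to 72.1, 39.3 to 55.3 and 31.9 to 35.2 CPM; gene-level values include exons outside the deleted part and do not check the deletion. The 10 AM markers summed to 20613 to 31351 CPM across the 11 libraries, most of it from *Chil3* (13182 to 23887 CPM). *Siglecf*, the gene of the gate shared by all groups, was at 198 to 264 CPM in the mAM libraries and at 19.3 to 19.7 CPM in ImmAM_KO, and *Marco* at 281 to 377 and 10.9 to 13.8 CPM. The AM markers did not all fall. Means in ImmAM_KO and mAM_WT were 218 and 198 CPM for *Pparg* and 21175 and 16163 CPM for *Chil3*. The other listed AM markers were lower in ImmAM_KO than in mAM_WT, among them *Itgax* (1425 and 1628 CPM) and *Mrc1* (1488 and 2478 CPM). The 7 of 8 listed interstitial macrophage markers with a row summed to 1894 to 2048 CPM in ImmAM_KO, 44.9 to 110 CPM in mAM_KO and 15.5 to 23.3 CPM in mAM_WT. In ImmAM_KO this sum was mostly *Mmp12*, with means of 1627, 52.3 and 5.11 CPM in ImmAM_KO, mAM_KO and mAM_WT. Marker means in this paragraph take in all 4 mAM_KO libraries. The other interstitial markers with a row were also higher in ImmAM_KO, and *Ccr2* is on the monocyte list too. In the same order of groups, 5 of 8 monocyte markers summed to 6612 to 7260, 1413 to 2003 and 1498 to 2171 CPM. The monocyte sum was almost all *Fn1* (means of 6789, 1622 and 1755 CPM); *Ccr2* (83.0, 15.5 and 11.4 CPM) was higher in ImmAM_KO, and *Vcan* was at 1.31 to 3.23 CPM over the 11 libraries, with means of 2.46 CPM in ImmAM_KO and 2.75 CPM in mAM_WT. The defining monocyte genes *Ly6c2* and *Plac8* have no row in the table, and the part of these cells in the results below was not tested. Listed markers of eosinophils, T cells, NK cells, endothelial cells, alveolar type 2 cells and fibroblasts have no row either. Those of neutrophils (5 of 10) summed to 51.7 to 61.9 CPM in ImmAM_KO and 24.6 to 40.6 CPM in the mAM libraries, and those of dendritic cells (2 of 6) to 20.7 to 24.1 and 5.40 to 8.12 CPM; *Ly6g*, *Flt3* and *Xcr1* have no row. The only listed B cell gene with a row was at 1.60 CPM or less. The 15 listed immediate-early genes summed to 648 to 995 CPM over the 11 libraries, but they did not move alike. Means in ImmAM_KO, mAM_KO and mAM_WT were 56.6, 15.2 and 7.77 CPM for *Socs3* and 47.5, 104 and 116 CPM for *Btg2*.

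**Figure D1:**
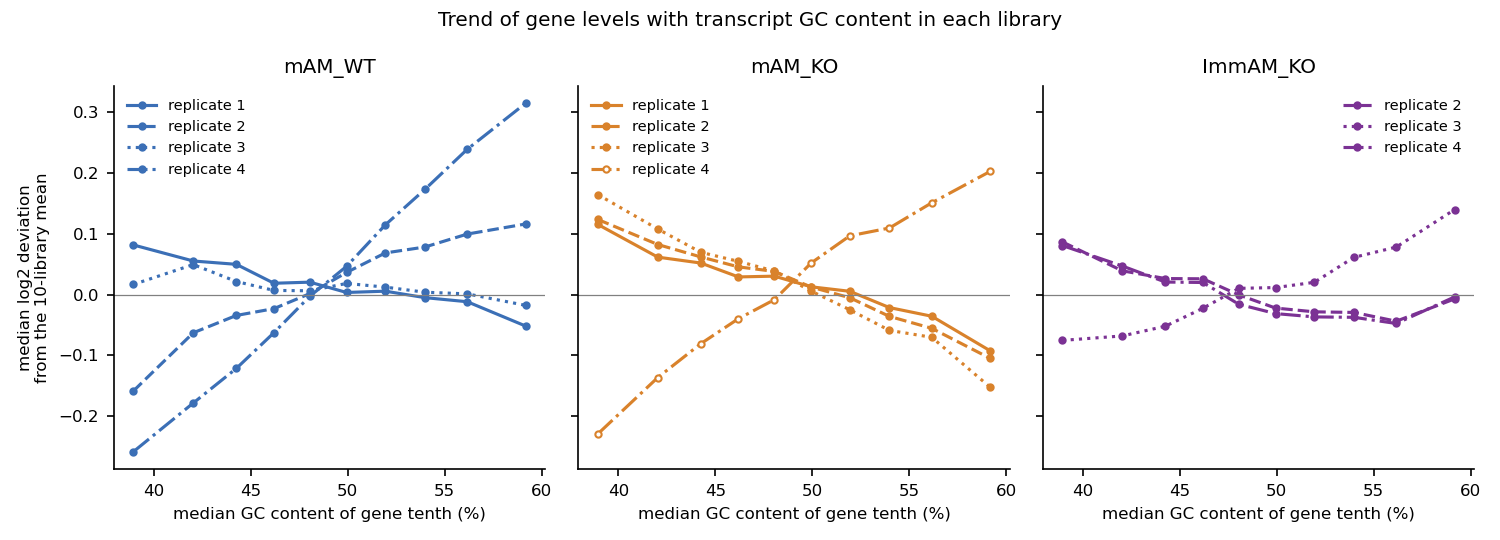
Median log2 deviation of genes from their mean over 10 libraries (y axis) against the median GC content of 10 gene groups in percent (x axis), 1 line per library and 1 panel per group. The lines of mAM_KO replicates 1 to 3 fall with GC content, while those of mAM_KO replicate 4 (open circles), mAM_WT replicates 2 and 4 and ImmAM_KO replicate 3 rise.

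Levels between genes were compared as CPM per kb of exon. In mAM_WT, *Cebpb* was at 493 ± 172 CPM per kb (SD, n = 4), followed by *Cebpa* at 201 ± 26.2 and *Spi1* at 177 ± 20.2, whose ranges overlapped. *Klf4* (62.0 ± 5.74) and *Bhlhe40* (56.9 ± 2.20) came next and also overlapped. *Bhlhe41* was at 35.7 ± 4.25, *Cebpg* at 29.8 ± 1.28 and *Runx1* at 22.4 ± 0.947 CPM per kb, and *Cebpd* (10.03 ± 2.14) and *Klf2* (9.36 ± 1.64) were lowest with overlapping ranges. In ImmAM_KO the 2 leading factors were not separated, with *Cebpb* at 254 ± 16.7 and *Cebpa* at 236 ± 12.4 CPM per kb (n = 3), and *Spi1* was at 92.6 ± 4.95. In mAM_KO (n = 3), *Cebpb* was at 268 ± 37.3, *Cebpa* at 170 ± 8.49 and *Spi1* at 129 ± 9.26 CPM per kb, without overlap in these 3 libraries. With the longest transcript as the length, *Runx1* moved from 22.4 to 45.9 CPM per kb in mAM_WT, above *Bhlhe41* (39.1) and *Cebpg* (35.6), *Spi1* (235) stood above *Cebpa* (201) and *Bhlhe40* (86.0) above *Klf4* (62.4). In mAM_KO, *Cebpa* and *Spi1* were then at 170.5 and 170.3 CPM per kb and no longer apart, and in ImmAM_KO *Cebpg* (53.7) stood just above *Klf4* (52.7), so the order between the leading *Cebpb* and the lowest pair depends on the length used.

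**Figure D2:**
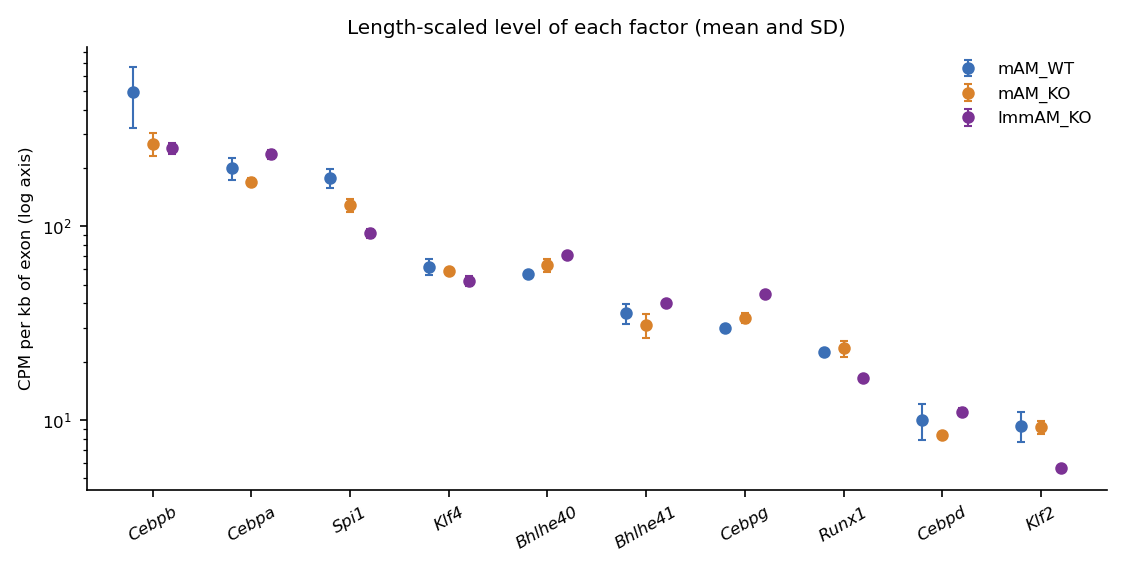
Mean and SD of CPM per kb of exon on a log axis for each factor, ordered by the mAM_WT mean (4 libraries of mAM_WT, 3 of mAM_KO, 3 of ImmAM_KO). *Cebpb*, *Cebpa* and *Spi1* lead in all 3 groups, and *Cebpd* and *Klf2* are lowest in all 3.

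The 3 comparisons were taken from 1 limma fit with Benjamini-Hochberg adjustment over 12889 genes, and they share groups, so they are not independent of each other. Against mAM_WT, mAM_KO differed in 2 of the 10 factors, *Spi1* and *Cebpb*, both lower. Of all genes tested, 4.84% passed in this comparison (2.25% higher, 2.59% lower), 3.73% with the GC correction and 2.61% with all 11 libraries. The median log2 fold change of the 10 factors was -0.14, beside -0.0019 over all genes, and 0.03 after the GC correction. Against mAM_WT, ImmAM_KO differed in 8 factors, 5 lower and 3 higher, in a comparison where 48.1% of all genes passed (22.8% higher, 25.3% lower; 52.3% with the GC correction). Between the Cre-positive groups, ImmAM_KO differed from mAM_KO in 7 factors, 4 higher and 3 lower, with 37.9% of all genes passing (17.7% higher, 20.2% lower) and 41.8% with the GC correction. The medians of the factors in these comparisons were -0.04 and 0.05, beside -0.0025 and -0.0053 over all genes. In bulk libraries, a change in RNA per cell and a change in the share of cells that express a gene cannot be told apart.

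**Figure D3:**
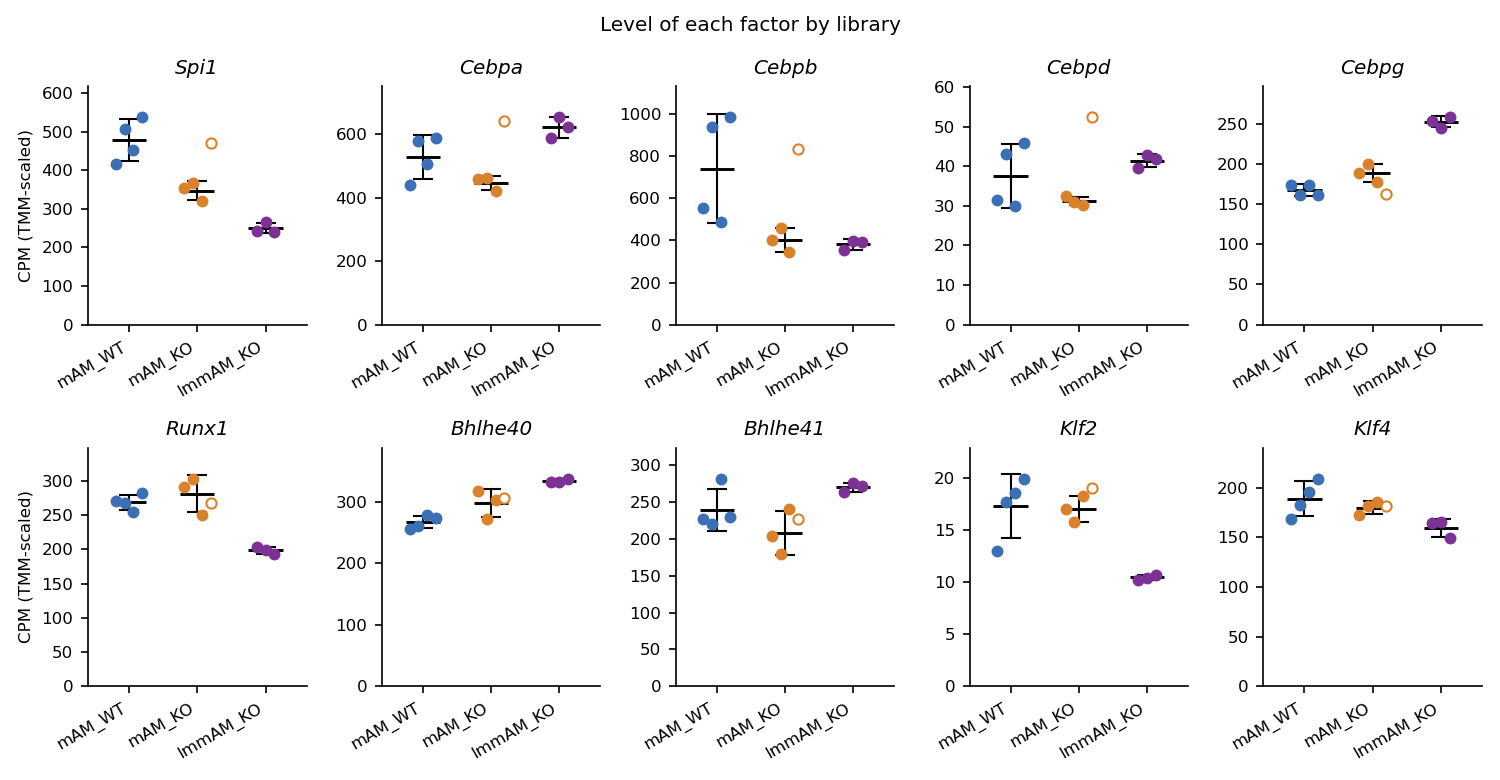
CPM of each factor in every library (points), with the mean and SD of the 10 libraries in the fit (black bars); the open circle is mAM_KO replicate 4, which is not in the means. *Spi1* steps down from mAM_WT (416 to 537 CPM) through mAM_KO replicates 1 to 3 (319 to 368 CPM) to ImmAM_KO (241 to 265 CPM), and the open circle lies within the mAM_WT range for *Spi1* and *Cebpb*.

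**Figure D4:**
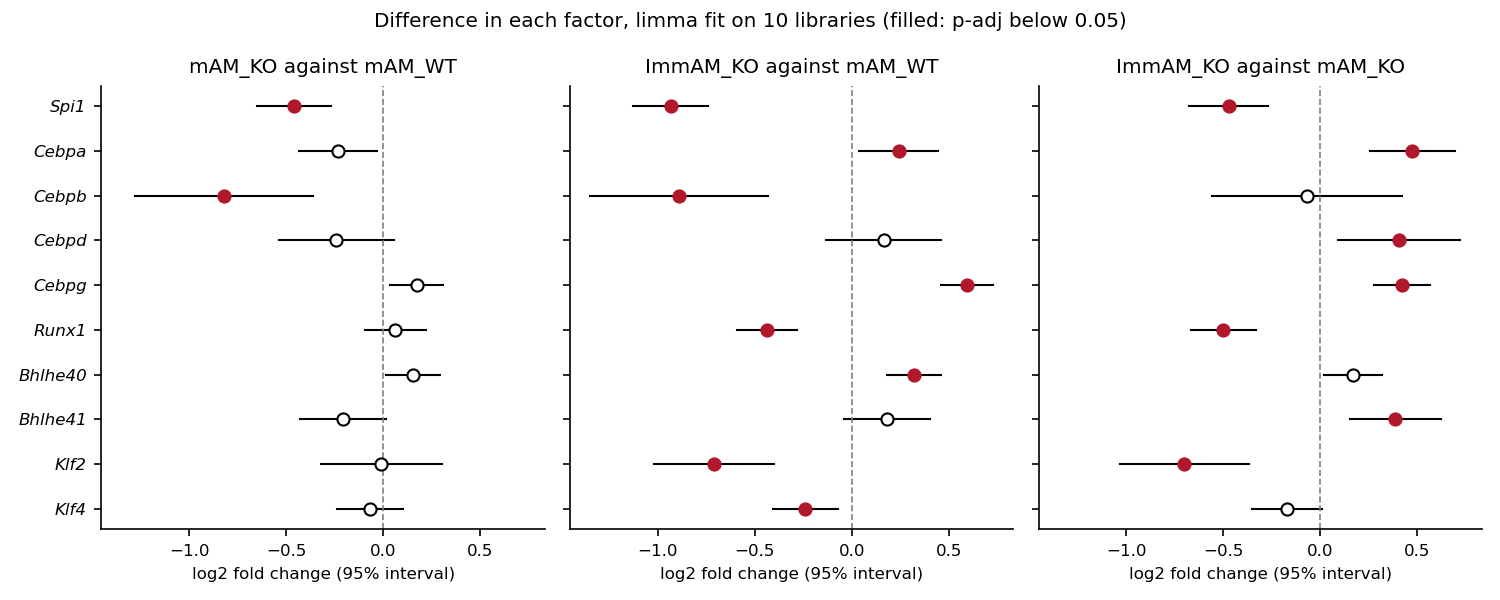
log2 fold change of each factor (points) with its 95% confidence interval (lines) in the 3 comparisons of the limma fit on 10 libraries; filled points have p-adj below 0.05. *Spi1* and *Cebpb* are filled for mAM_KO against mAM_WT, and 8 and 7 factors for ImmAM_KO against mAM_WT and against mAM_KO.

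*Spi1* (chromosome 2, 91082390 to 91115756 on GRCm38, 7 exon blocks) fell in ImmAM_KO. It was at 243, 265 and 241 CPM in ImmAM_KO replicates 2 to 4 and at 353, 368 and 319 CPM in mAM_KO replicates 1 to 3. In mAM_WT replicates 1 to 4 it was at 416, 507, 453 and 537 CPM. The 3 groups did not overlap, and ImmAM_KO stood below both others. The log2 fold change was -0.93 against mAM_WT (SE 0.0886, p-adj = 1.95e-06, limma) and -0.47 against mAM_KO (SE 0.0947, p-adj = 0.00159), and the GC correction gave -0.87 and -0.62. For mAM_KO against mAM_WT, the value was -0.46 (p-adj = 0.0157) without and -0.25 with the GC correction (p-adj = 0.0230). The fourth mAM_KO library was at 469 CPM, inside the mAM_WT range, and the call was lost with it (-0.35, p-adj = 0.131) and without mAM_KO replicate 3 or mAM_WT replicate 2 (p-adj = 0.0729 and 0.05001). After the GC correction of all 11 libraries, *Spi1* was at 387, 407, 355 and 414 CPM in mAM_KO and at 440, 476, 462 and 448 CPM in mAM_WT. The 4 mAM_KO values then lay below the 4 mAM_WT values, with a log2 difference of -0.23 (SE 0.0528, p-adj = 0.0322, limma). Leaving out the mAM_WT libraries of high GC tilt, replicates 2 and 4, gave -0.33 with no correction (p-adj = 0.0858).

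*Cebpb* (chromosome 2, 167688915 to 167690418, a single exon) had the widest spread of the 10 factors in mAMs. It was at 553, 939, 486 and 987 CPM in mAM_WT replicates 1 to 4 and at 403, 458, 346 and 833 CPM in mAM_KO replicates 1 to 4. The 3 highest values, mAM_WT replicates 4 and 2 and mAM_KO replicate 4, came from the 3 mAM libraries with the highest GC tilt. ImmAM_KO replicates 2 to 4 were at 353, 398 and 394 CPM, below every mAM_WT library. For mAM_KO against mAM_WT the log2 fold change was -0.82 (SE 0.212, p-adj = 0.0462, limma), and it was -0.43 with the GC correction (p-adj = 0.0724) and -0.56 with all 11 libraries (p-adj = 0.344). That call held in 3 of 10 fits with 1 library left out, which dropped mAM_KO replicate 2, mAM_WT replicate 1 and mAM_WT replicate 3, and p-adj was 0.0618 to 0.161 in the others. The fall in ImmAM_KO against mAM_WT passed in all 26 alternatives, at -0.89 (SE 0.212, p-adj = 0.0038) and -0.88 with the GC correction, and ranged from -1.07 to -0.44, the smallest without mAM_WT replicates 2 and 4. Between ImmAM_KO and mAM_KO the uncorrected fit called no difference in *Cebpb*, at 382 ± 25.1 against 402 ± 56.0 CPM (-0.07, 95% interval -0.56 to 0.42, p-adj = 0.842). With the GC correction the same comparison gave -0.46 (SE 0.130, p-adj = 0.0129), a fall that the uncorrected values do not show. Exons of *Tmem189* on the opposite strand overlap *Cebpb*, and whether reads were counted by strand is not given in the sources used here.

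*Cebpa* (chromosome 7, 35119293 to 35121928, a single exon) was higher in ImmAM_KO than in mAM_KO. It was at 589, 654 and 623 CPM in ImmAM_KO and at 458, 463 and 422 CPM in mAM_KO replicates 1 to 3, with 643 CPM in mAM_KO replicate 4. The fourth library stood in the ImmAM_KO range, and the other 3 stood below it. The log2 fold change was 0.47 (SE 0.1003, p-adj = 0.00229, limma), 0.21 with the GC correction (p-adj = 0.0217) and 0.34 with all 11 libraries (p-adj = 0.0564). In mAM_WT it was at 441, 580, 507 and 588 CPM. ImmAM_KO lay just above that range, at 0.24 (SE 0.0938, p-adj = 0.0481), and this call held in 2 of 10 fits with 1 library left out, which dropped mAM_WT replicate 2 and mAM_WT replicate 4, with p-adj of 0.0515 to 0.154 in the others. The GC correction gave 0.27 (p-adj = 0.00271) for the same comparison. mAM_KO and mAM_WT differed by -0.23 (95% interval -0.44 to -0.03, p-adj = 0.157) and by 0.06 after the GC correction, and without mAM_WT replicate 1 the value was -0.32 (p-adj = 0.0340). The antisense gene Gm45091 overlaps *Cebpa* and has no row in the table.

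*Cebpg* (chromosome 7, 35046422 to 35056573) rose in ImmAM_KO, opposite to *Cebpb*. It was at 254, 246 and 259 CPM in ImmAM_KO, at 189, 200 and 178 CPM in mAM_KO replicates 1 to 3 with 162 CPM in replicate 4, and at 174, 162, 174 and 161 CPM in mAM_WT. Every ImmAM_KO library was above every mAM library. The log2 fold change was 0.59 against mAM_WT (SE 0.0625, p-adj = 5.07e-06, limma) and 0.42 against mAM_KO (SE 0.0668, p-adj = 0.000269), and it passed in all 26 alternatives of each comparison. mAM_KO replicates 1 to 3 lay above mAM_WT by 0.17 (95% interval 0.04 to 0.31, p-adj = 0.119), and by 0.07 after the GC correction; with 43.3% GC, *Cebpg* is the factor poorest in GC.

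*Cebpd* (chromosome 16, 15887286 to 15891031, a single exon), the C/EBP gene of lowest level here, was at 39.6, 42.8 and 41.7 CPM in ImmAM_KO and at 32.4, 31.0 and 30.3 CPM in mAM_KO replicates 1 to 3. The fourth mAM_KO library was at 52.4 CPM, the highest of all 11, and the mAM_WT libraries were at 31.6, 43.0, 29.9 and 45.8 CPM. The log2 difference of ImmAM_KO and mAM_KO was 0.41 (SE 0.146, p-adj = 0.0436, limma), and it did not pass with all 11 libraries (0.22, p-adj = 0.398) or without any 1 of the ImmAM_KO libraries or of mAM_KO replicates 1 to 3 (p-adj of 0.0691 to 0.114). Against mAM_WT, the differences were 0.16 for ImmAM_KO (p-adj = 0.346) and -0.24 for mAM_KO (p-adj = 0.303), and without mAM_WT replicates 2 and 4 the first was 0.43 (p-adj = 0.00291). The GC correction left mAM_KO replicate 4 at 50.4 CPM. Exons of *Spidr* on the opposite strand overlap *Cebpd*.

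*Runx1* (chromosome 16, 92601466 to 92826149, 9 exon blocks) was lower in ImmAM_KO than in both mAM groups. The values were 204, 199 and 193 CPM in ImmAM_KO, 291, 304 and 251 CPM in mAM_KO replicates 1 to 3, 268 CPM in replicate 4 and 271, 268, 255 and 282 CPM in mAM_WT. ImmAM_KO did not overlap with any mAM library, and the mAM groups overlapped each other. The log2 fold change was -0.44 against mAM_WT (SE 0.0717, p-adj = 0.000254, limma) and -0.50 against mAM_KO (SE 0.0766, p-adj = 0.000206), and both passed in all 26 alternatives. Between mAM_KO and mAM_WT the difference was 0.06 (95% interval -0.09 to 0.22, p-adj = 0.624).

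*Bhlhe40* (chromosome 6, 108660629 to 108666925) rose in ImmAM_KO against mAM_WT, while *Bhlhe41* (chromosome 6, 145858243 to 145865558) did not pass that test. *Bhlhe40* was at 332, 333 and 338 CPM in ImmAM_KO, at 318, 273 and 303 CPM in mAM_KO replicates 1 to 3, at 307 CPM in replicate 4 and at 257, 261, 279 and 274 CPM in mAM_WT. The ImmAM_KO libraries had an SD of 3.24 CPM and lay above every mAM library. The log2 fold change against mAM_WT was 0.32 (SE 0.0643, p-adj = 0.00111, limma), and against mAM_KO it was 0.17 (95% interval 0.02 to 0.32, p-adj = 0.0709), with p-adj = 0.0275 after the GC correction and 0.0423 without mAM_KO replicate 1. *Bhlhe41* was at 264, 275 and 272 CPM in ImmAM_KO, at 204, 180 and 240 CPM in mAM_KO replicates 1 to 3, at 227 CPM in replicate 4 and at 228, 220, 282 and 229 CPM in mAM_WT. ImmAM_KO was above mAM_KO by 0.39 (SE 0.109, p-adj = 0.0133), and this call was lost without mAM_KO replicate 2 (0.29, p-adj = 0.0610). The mAM_WT library at 282 CPM, replicate 3, lay above all ImmAM_KO values. Against mAM_WT the difference was 0.18 (95% interval -0.04 to 0.40, p-adj = 0.163), and without mAM_WT replicate 3 it was 0.26 (p-adj = 0.0351). For mAM_KO against mAM_WT, *Bhlhe40* differed by 0.15 (p-adj = 0.168) and *Bhlhe41* by -0.21 (p-adj = 0.245). *Bhlhe40* and *Bhlhe41* overlap opposite-strand genes, 0610040F04Rik and Gm43909.

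*Klf2* (chromosome 8, 72319033 to 72321656) and *Klf4* (chromosome 4, 55527143 to 55532466) were both lower in ImmAM_KO than in mAM_WT. *Klf2* was at 10.2, 10.4 and 10.6 CPM in ImmAM_KO (171 to 224 reads), at 17.0, 15.7 and 18.3 CPM in mAM_KO replicates 1 to 3, at 19.0 CPM in replicate 4 and at 12.9, 17.7, 18.6 and 19.9 CPM in mAM_WT. Every ImmAM_KO library was below every mAM library. The log2 fold change was -0.71 against mAM_WT (SE 0.143, p-adj = 0.00123, limma) and -0.70 against mAM_KO (SE 0.153, p-adj = 0.00288), and both passed in all 26 alternatives, with -0.68 and -0.94 after the GC correction. mAM_KO and mAM_WT differed by -0.01 (95% interval -0.32 to 0.30, p-adj = 0.976), and by 0.26 after the GC correction (p-adj = 0.242). *Klf4* was at 164, 166 and 149 CPM in ImmAM_KO, at 173, 181 and 186 CPM in mAM_KO replicates 1 to 3, at 182 CPM in replicate 4 and at 168, 182, 196 and 209 CPM in mAM_WT. ImmAM_KO lay below mAM_WT by a small margin, and the log2 fold change was -0.24 (SE 0.0777, p-adj = 0.0220). That call was lost without ImmAM_KO replicate 4 or mAM_WT replicate 3 (p-adj = 0.107 and 0.0533), with quantile normalization (-0.15, p-adj = 0.152), with all 11 libraries GC-corrected (p-adj = 0.0540) and without mAM_WT replicates 2 and 4 (p-adj = 0.0864). Against mAM_KO the difference was -0.17 (p-adj = 0.121), and -0.22 with the GC correction (p-adj = 0.0180).

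**Figure D5:**
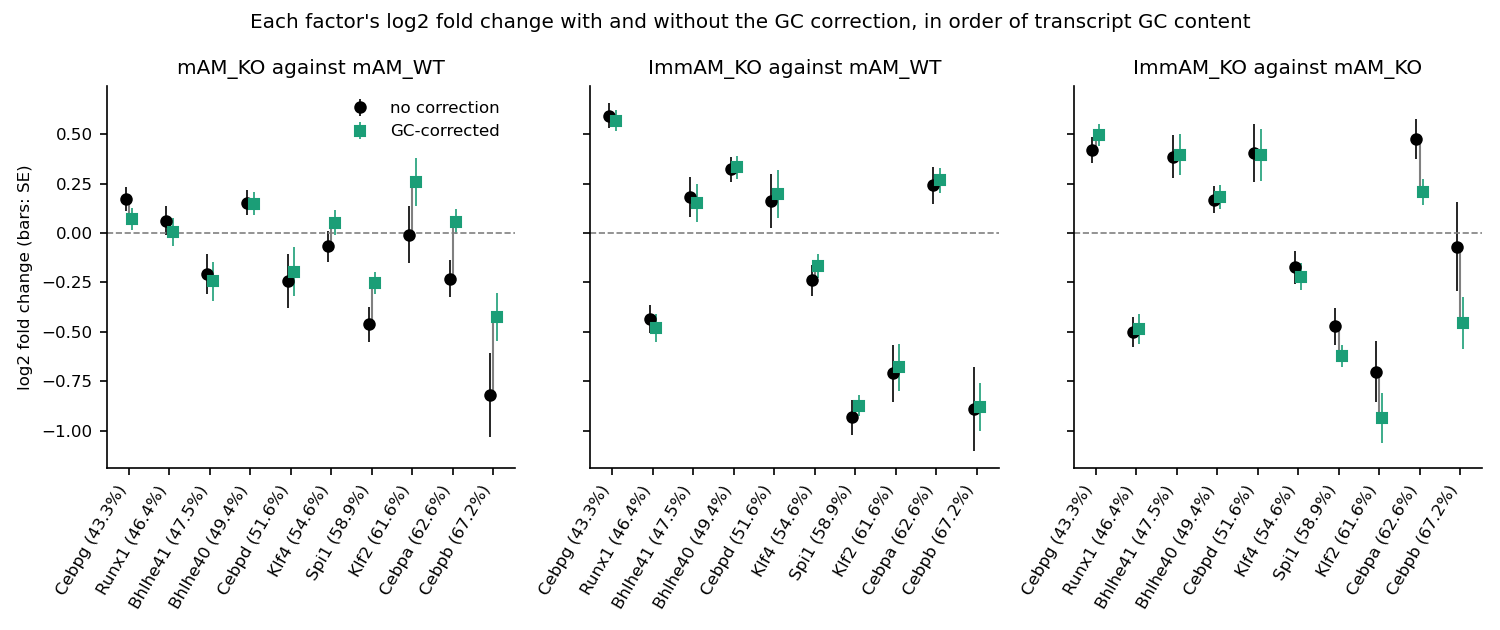
log2 fold change of each factor without (circles) and with (squares) the GC correction, bars showing SE, ordered by the GC content of the transcript in percent, in the 3 comparisons. The 4 GC-richest factors, *Spi1*, *Klf2*, *Cebpa* and *Cebpb*, move up by the correction in mAM_KO against mAM_WT and down in ImmAM_KO against mAM_KO, and move least in ImmAM_KO against mAM_WT.

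Among the relatives of PU.1, 15 of 18 listed ETS factors were in the table, and 9 of them rose and 1 fell in ImmAM_KO against mAM_WT, where 22.8% of all genes rose and 25.3% fell. These shares, and 17.7% and 20.2% against mAM_KO, are the background for each list below. In mAM_KO against mAM_WT the shares were 2.25% and 2.59%. *Etv5* went from 1.85 to 10.9 CPM (2.59 on the log2 scale) and *Etv1* from 0.159 to 5.26 CPM, while *Elf4*, the one that fell, went from 165 to 106 CPM (-0.64). The median of the 15 was 0.41, beside -0.0025 over all genes. The count of risen ETS factors was 8 with the GC correction, 8 with all 11 libraries and 7 to 8 with 1 library left out. Against mAM_KO, 8 rose and 1 fell, and in mAM_KO against mAM_WT 0 passed by limma, edgeR or DESeq2 (3 had an unadjusted p below 0.05), with *Elf4* at 160 against 165 CPM and *Elf1* at 112 against 99.1 CPM. Of 11 tested PU.1 partners and other macrophage factors, 8 rose and 2 fell in ImmAM_KO against mAM_WT. *Irf4*, which binds composite sites with PU.1, went from 6.76 to 59.8 CPM (3.16). *Egr2* fell from 118 to 44.4 CPM (-1.40) and *Nr4a1* from 13.6 to 7.76 CPM (-0.81). *Irf4* also rose in mAM_KO, to 13.5 CPM (0.995, p-adj = 0.0114), and *Nr4a1* fell there, to 8.01 CPM (-0.81, p-adj = 0.0396), but *Irf4* did not pass without mAM_KO replicate 3 (p-adj = 0.0558) or without mAM_WT replicates 2 and 4 (p-adj = 0.0918), and *Nr4a1* did not pass with the GC correction, with all 11 libraries or in 9 of 10 fits with 1 library left out. *Nr4a1* is also on the lists of monocyte markers and of immediate-early genes.

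Of 17 genes known as PU.1 targets, 7 rose and 4 fell in ImmAM_KO against mAM_WT, with a median of 0.03. *Itgam*, which encodes the CD11b used to sort the gates apart, went from 3.63 to 170 CPM (5.55), and the scavenger receptor *Msr1* from 33.0 to 409 CPM (3.68). The Fc receptor *Fcgr1* fell from 80.8 to 51.4 CPM (-0.65) and the kinase *Btk* from 125 to 91.7 CPM (-0.45). *Csf1r*, the CSF-1 receptor, rose by 1.33 and *Itgb2* fell by 0.41 on the log2 scale. A link of these changes to the level of *Spi1* was not tested. In mAM_KO against mAM_WT, where 2.25% of all genes rose and 2.59% fell, 3 of 17 rose and 0 fell. The 3 were *Msr1* (105 against 33.0 CPM, 1.66), *Itgam* (7.25 against 3.63 CPM, 0.90) and *Fcgr3* (0.60). The GC correction gave 2 higher and 1 lower. *Itgam* was called in 1 of 10 fits with 1 library left out, the one that dropped mAM_KO replicate 2. Between ImmAM_KO and mAM_KO, 6 rose and 3 fell.

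Of the bZIP relatives of the C/EBP factors, 3 of 6 were in the table. *Ddit3*, the stress-induced CHOP, rose from 8.82 to 15.5 CPM in ImmAM_KO against mAM_WT (0.82) and was also higher than in mAM_KO (0.70), and *Nfil3* (44.0, 37.0 and 39.5 CPM in ImmAM_KO, mAM_KO and mAM_WT) and *Tef* did not pass in any comparison by limma. Of 7 tested genes known as C/EBP targets, 5 rose and 1 fell in ImmAM_KO against mAM_WT. Lysozyme, *Lyz2*, went from 18563 to 28353 CPM (0.61) and *Csf3r*, the G-CSF receptor, from 24.7 to 34.4 CPM (0.51), while complement *C3* fell from 391 to 221 CPM (-0.82). *Csf3r* is also on the list of neutrophil markers. The count of risen targets was 2 to 5 with 1 library left out. Against mAM_KO 3 rose and 1 fell, and in mAM_KO against mAM_WT 0 of the 7 passed by limma or edgeR and 1 by DESeq2 (1 had an unadjusted p below 0.05 in limma), with *Lyz2* at 19908 against 18563 CPM and *Chil3* at 20305 against 16163 CPM.

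Of 7 tested RUNX family members and cofactors, 4 fell and 2 rose in ImmAM_KO against mAM_WT, and the same counts were found against mAM_KO, with the GC correction and with each library left out, in comparisons where 48.1% and 37.9% of all genes passed. *Cbfb*, the obligate partner, fell by 0.56 on the log2 scale against mAM_WT and by 0.47 against mAM_KO, and *Runx2* fell by 0.55 in both. The corepressors *Tle3* (103 to 60.6 CPM, -0.76) and *Tle1* (42.1 to 26.4 CPM, -0.67) fell, and *Tle4* (42.0 to 72.2 CPM, 0.78) and *Cbfa2t3* (6.19 to 26.0 CPM, 2.06) rose. In mAM_KO against mAM_WT 0 of 7 passed by limma, edgeR or DESeq2 (2 had an unadjusted p below 0.05), with *Cbfb* at 175 against 186 CPM and *Tle3* at 92.6 against 103 CPM.

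BHLHE40 and BHLHE41 repress some clock genes through E-boxes, and 9 clock genes were tested, not all of them such targets. In ImmAM_KO against mAM_WT, *Nr1d2* rose from 18.3 to 35.1 CPM (0.98, p-adj = 0.00543, limma) and *Cry2* fell by 0.84 (p-adj = 0.0368). *Cry2* did not pass with the GC correction. In the other comparisons 0 of the 9 passed by limma, edgeR or DESeq2 (unadjusted p below 0.05 for 1 in mAM_KO against mAM_WT and 0 in ImmAM_KO against mAM_KO); *Clock* was at 85.3, 96.3 and 89.1 CPM and *Per1* at 72.8, 70.6 and 55.1 CPM in mAM_WT, mAM_KO and ImmAM_KO. Of 14 other KLF and SP factors, 6 rose and 5 fell in ImmAM_KO against mAM_WT. With 1 library left out, 3 to 6 rose and 4 to 5 fell. *Klf8* fell from 10.97 to 1.93 CPM (-2.50) and *Klf10* from 261 to 166 CPM (-0.65), and *Klf16* (18.5 to 25.2 CPM, 0.45) and *Sp3* (91.9 to 119 CPM, 0.38) rose. Against mAM_KO 2 rose and 3 fell, and in mAM_KO against mAM_WT 0 passed by limma or edgeR and 1 by DESeq2 (5 had an unadjusted p below 0.05 in limma), with *Klf6* at 348 against 289 CPM (0.27, p-adj = 0.0728) and *Klf13* at 319 against 304 CPM. Among genes known as KLF2 targets, *Thbd*, which encodes thrombomodulin, went from 32.4 in mAM_WT to 43.6 in mAM_KO and 118 CPM in ImmAM_KO (0.42 and 1.87 on the log2 scale against mAM_WT), and its rise in mAM_KO (p-adj = 0.0440) was called in 1 of 10 fits with 1 library left out, the one that dropped mAM_KO replicate 3. *Itgb7* (0.852, 4.10 and 38.7 CPM) rose in ImmAM_KO and also in mAM_KO (2.25 against mAM_WT, p-adj = 0.0047, limma). A part of KLF2 in these rises was not tested.

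The genes whose log2 values followed each factor most closely over the 10 libraries, of 8732 genes at a mean of 10 CPM or more, had Pearson correlations of 0.899 to 0.994. They were *Mapk3* (0.994) and *Fermt3* (0.993) for *Spi1*, *Cdk2ap2* (0.977) and *Pgp* (0.968) for *Cebpb*, *Ergic3* (0.983) and *Rplp2* (0.969) for *Cebpa*, and *Lemd2* (0.967) and *Rhbdf2* (0.963) for *Cebpd*. *Cebpg* was followed most closely by *Fcho2* (0.991) and Gm48161 (0.983), and *Runx1* by *Cytip* (0.978) and *Cep68* (0.978). For *Bhlhe40* they were *Elk4* (0.976) and *Arhgap19* (0.9748), for *Bhlhe41* *Fmnl3* (0.956) and *H1f0* (0.899), for *Klf2* *Gna12* (0.969) and *Mpc2* (0.955) and for *Klf4* *Arfgap1* (0.928) and *Alyref* (0.928). The points share the 3 groups and the GC tilt of the libraries, and the genes closest to *Spi1*, *Cebpb*, *Cebpa* and *Cebpd* have GC contents of 55.0% to 58.7%, while *Fcho2* has 39.6%. With all 11 libraries, 11 of the 20 genes were still among the closest 2 of their factor.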

How the data were processed

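Total RNA of sorted AMs was made into directional libraries and sequenced from 1 end over 60 bases. The authors used Cutadapt for trimming and RSEM (version 1.3.1 in the submitters' processing notes) on the transcriptome of GRCm38 for quantification, per the study's methods. They deposited CPM values with TMM scaling, keeping a gene if 3 or more samples reached 1 CPM. The strand setting of the counting is not given in the sources used here, and the sources name both lavage and lung digestion as the origin of the cells. In every library, 100% of the deposited CPM values are whole reads plus 0.5, times a fixed step, within 0.01 of a read; these reads were used for edgeR and DESeq2.

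The log2 CPM values of 10 libraries (mAM_WT 4, mAM_KO 3, ImmAM_KO 3), as in the study's comparisons, entered a limma fit (version 3.58.1 in R 4.3.3, with a variance trend and 1 mean for each of the 3 groups) over the 12889 genes that reached 1 CPM in 3 or more of them. Moderated two-sided tests were adjusted by Benjamini-Hochberg (p-adj, threshold 0.05). Replicates are separate biological samples per the labels. The alternatives were all 11 libraries, a pseudocount of 1 CPM, a minimum of 5 CPM or none, scaling by median ratios, quantile normalization, edgeR 4.0.16, DESeq2 1.42.0, no variance trend, 2 groups only, a replicate block and each library left out. Chosen after seeing the data were the GC correction (a loess curve of log2 deviations on transcript GC content, span 0.3, or 0.1 as a further setting) alone, with all 11 libraries and with the block, and a fit without mAM_WT replicates 2 and 4. Positions, lengths and GC content come from GENCODE vM21, which held GC content for 12919 of the 12932 genes, and promoters from RefSeq. The fits were tested on simulated data with 200 changed genes. The factors, gene lists and markers were chosen with earlier results of these data known. All 10 factors are named; with each, the 2 genes of highest correlation with it are named, and from each list up to 2 called genes that rose most and 2 that fell most, at a minimum of 5 CPM in the higher group (or the 2 of highest level where 0 were called). Some genes that this rule names are not reported here. Genes outside this rule were chosen after their values were seen.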

Additional observations from a re-analysis of the deposited data

Results flagged for a closer look

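In 24 sets of 4 mAM libraries (each factor's CPM, the GC tilt and the read total, in mAM_WT and mAM_KO), 3 held a library far from the other 3 by Dixon's criterion. Chance meets that criterion in about 1 of 20 independent sets. The 24 sets reuse the same libraries and are not independent, so the count of 3 cannot be set against that rate. *Cebpd* was at 52.4 CPM in mAM_KO replicate 4, while the other mAM_KO libraries were at 30.3 to 32.4 CPM. The GC tilt of the same library was 0.43, against -0.32 to -0.21 in the others. *Bhlhe41* was at 282 CPM in mAM_WT replicate 3, against 220 to 229 CPM in the other mAM_WT libraries. The GC correction left the first and the last of these values at 50.4 and 283 CPM.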

How the results depend on the processing

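In ImmAM_KO against mAM_WT, *Spi1*, *Cebpb*, *Cebpg*, *Runx1*, *Bhlhe40* and *Klf2* passed in all 26 alternatives with their direction, and in ImmAM_KO against mAM_KO so did *Spi1*, *Cebpg*, *Runx1* and *Klf2*. The results for mAM_KO against mAM_WT depended on the processing. The 2 factors called there became 0 with all 11 libraries, with no variance trend and without mAM_WT replicates 2 and 4, 1 with quantile normalization and with only the 2 groups compared, 1 with the GC correction in each of its 4 forms (*Spi1*, but *Cebpb* in the form with the block, at p-adj = 0.0371 against 0.0590 for *Spi1*), and 0 to 3 with 1 library left out (0 without mAM_KO replicate 3 or mAM_WT replicate 2). The 624 genes called became 337 with all 11 libraries, 1352 by DESeq2 (566 by edgeR), 122 with no variance trend, 199 with only the 2 groups compared, 153 without mAM_WT replicates 2 and 4, and 162 to 861 with 1 library left out (162, 212, 220, 327, 355, 386 and 397 without mAM_KO replicates 3 and 1, mAM_WT replicates 2, 3 and 4 and ImmAM_KO replicates 4 and 2). The cause was not tested. Fewer libraries entered the last 3 settings, yet the count was 861 without mAM_WT replicate 1 and 851 without mAM_KO replicate 2. On the log2 scale, the difference in *Klf2* (-0.01) became 0.0322 with all 11 libraries, 0.0041 with quantile normalization, 0.1302 without mAM_WT replicates 2 and 4 and -0.1418 to 0.0658 with 1 library left out. With the GC correction, on all 11 libraries, with the block and with the narrower span, *Klf2* became 0.2587, 0.1910, 0.2744 and 0.2659, *Cebpa* (-0.23) became 0.0585, 0.0692, 0.0494 and 0.0738, and *Klf4* (-0.07) became 0.0528, 0.0132, 0.0539 and 0.0478. *Cebpd* (-0.24) became 0.0239 without mAM_WT replicates 2 and 4. In ImmAM_KO against mAM_KO, the log2 difference in *Cebpb* (-0.07) became 0.0052 with quantile normalization and -0.1720 to 0.0304 with 1 library left out, and the 7 factors called became 10 with the GC correction and 5 with all 11 libraries.

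Whether the replicate numbers pair the samples was not settled. The deviations of same-numbered libraries correlated at -0.129 to 0.059, and not every library was closest to its own number. Pairs with an mAM_WT library come from different mice, since the genotypes differ. ImmAM_KO and mAM_KO share a genotype, and their same-numbered libraries in the fit correlated at 0.059 (replicate 2) and -0.0333 (replicate 3). These values cannot decide whether both gates were sorted from the same mice. The main fit took the libraries as unpaired. ImmAM_KO and mAM_KO differed in 3894 genes and 6 factors in the fit with the replicate block. With the replicate block, mAM_KO and mAM_WT differed in 174 genes and 0 factors (250 genes and 1 factor with the GC correction as well), and the log2 difference in *Klf2* became 0.0460. *Klf2*, at 171 to 494 reads a library, is the factor whose level is least precise by depth.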
